A study of Mus musculus with 8 samples.

Results

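The genes described here are the 4 LGI genes (Lgi1, Lgi2, Lgi3 and Lgi4), which encode secreted proteins, and 3 ADAM genes (Adam11, Adam22 and Adam23), which encode their receptors at the cell surface. Each of the 7 had 1 row on the array that carried its symbol alone, so all 7 were measured among 19938 genes. They were chosen with their differences between these hearts already known, and 0 genes had a larger fall than Lgi1. Their differences between the groups are therefore given as a description, with no p-value, and nothing is supported by them.

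LGI proteins combine leucine-rich repeats with a propeller of EAR repeats, through which they bind ADAM11, ADAM22 and ADAM23. These ADAM proteins are built like the membrane proteases of the family but lack a working protease site, and act as receptors and anchors. The best known complex joins LGI1 to ADAM22 and ADAM23 at synapses and axons, where it holds AMPA-type glutamate receptors and Kv1 potassium channels in place, and loss of LGI1 causes epilepsy in humans and mice. In peripheral nerve, LGI4 released by Schwann cells acts on ADAM22 of axons and is needed for myelination. Most of this knowledge comes from the nervous system, and far less is known of the family in the heart.

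Affymetrix whole-transcript arrays were hybridised with RNA from the hearts of 4 mice labelled MHC-Plin5 and 4 labelled control. All mice were male, 12 weeks old and of a c57/bl background, and the hearts are labelled as fasted, with no duration given. The series title describes overexpression of Plin5 in cardiomyocytes only, where the protein, perilipin 5, covers the surface of lipid droplets. The labels do not spell out the promoter, the number of founder lines or whether controls were littermates. Whole hearts hold muscle, vessels, connective tissue, nerve and blood cells, so fewer cells of a type and less RNA per cell cannot be told apart in any value below.

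Log2 levels of Plin5 were 8.92, 8.87, 9.04 and 8.58 in the control hearts, in the order of their numbers, and 12.17, 12.69, 12.63 and 12.08 in the MHC-Plin5 hearts, so the labels and the transgene went together in all 8 hearts. Array medians over all rows were 5.99 to 6.04 in 6 hearts, 6.25 in control 2 and 6.18 in MHC-Plin5 4. The 8 cardiomyocyte markers had a mean log2 level of 13.46 to 13.51 in control and 13.29 to 13.54 in MHC-Plin5 hearts, with 0 of 8 called by limma (1 at an unadjusted p under 0.05). With 4 arrays in each group, their number limits the precision.

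The promoters of Lgi1 and Adam22 are shown because these are the ligand and the receptor with the largest differences. The windows span 250 bases before to 50 after the RefSeq start site on GRCm38.p6, and capitals mark the core of the C/EBP-ATF response element, the site that ATF4 dimers bind (TGATGNAA, searched on both strands). Among the 7 genes, 4 had a window in the RefSeq table, namely Lgi1, Lgi2, Adam22 and Adam23.
Lgi1, chr19:38264437-38264736, plus strand: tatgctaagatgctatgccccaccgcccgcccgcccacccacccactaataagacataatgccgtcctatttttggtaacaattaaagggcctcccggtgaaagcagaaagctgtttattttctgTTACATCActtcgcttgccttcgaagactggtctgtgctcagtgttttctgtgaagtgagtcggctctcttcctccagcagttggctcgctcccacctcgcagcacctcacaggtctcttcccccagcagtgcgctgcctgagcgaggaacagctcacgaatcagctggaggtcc
Adam22, chr5:8368111-8368410, minus strand: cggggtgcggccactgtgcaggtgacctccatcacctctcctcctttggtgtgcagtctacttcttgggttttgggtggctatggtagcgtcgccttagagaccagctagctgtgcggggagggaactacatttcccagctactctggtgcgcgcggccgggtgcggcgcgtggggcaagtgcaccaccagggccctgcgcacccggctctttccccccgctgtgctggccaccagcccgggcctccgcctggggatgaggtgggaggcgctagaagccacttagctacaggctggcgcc

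The Lgi1 window held 1 match, TTACATCA, which is the motif read on the minus strand, at positions -125 to -118 from the start site. The windows of Lgi2, Adam22 and Adam23 held 0, and 3.97% of all 32851 promoter windows in the table held at least 1. None of the 4 windows held the cyclic AMP response element TGACGTCA (1.79% of all windows), the E-box CACGTG (7.15%) or the core of the antioxidant response element TGACNNNGC (12.4%). The Lgi1 window was 54% G or C, and the Adam22, Adam23 and Lgi2 windows 66.3%, 70% and 73.3%. A match is a stretch of letters and no proof of binding, and these motifs were picked with earlier results of these data known.

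Lgi1, the ligand best known from synapses and the one gene with that core among the 4 windows searched, had log2 levels of 8.84, 7.92, 8.42 and 7.20 in the control hearts, listed by number. The same order in the MHC-Plin5 hearts gave 5.41, 3.26, 3.99 and 6.41. All 4 MHC-Plin5 hearts were below all 4 control hearts, and the nearest pair of hearts, control 4 and MHC-Plin5 4, was 0.79 apart. The mean was 8.09 ± 0.70 in the control group and 4.77 ± 1.41 in the MHC-Plin5 group (SD, n = 4 each). The log2 difference was -3.32 (SE 0.59), which is a 10.02-fold lower level in MHC-Plin5 hearts. Hearts of 1 genotype also varied widely in this gene: its pooled SD within the groups was 1.12, and 0.1% of all genes had a larger one.

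The dim end of the array gives those low values a scale. The 1015 olfactory receptor genes, most of which hearts are not known to express, had a median level of 3.93, with the 5th percentile at 3.01 and the 95th at 5.60. The mean of Lgi1 in control hearts was above that range, and in the MHC-Plin5 group only heart 4 was above it. The level of Lgi1 in MHC-Plin5 1, 2 and 3 thus lay where most olfactory receptor genes lie, and its fold rests on values at the dim end of the array. The means over all 8 hearts of all 7 genes were above that 95th percentile, all 7 passed a filter at a mean of 5, and 0 passed one at a mean of 7.

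**Figure D1:**
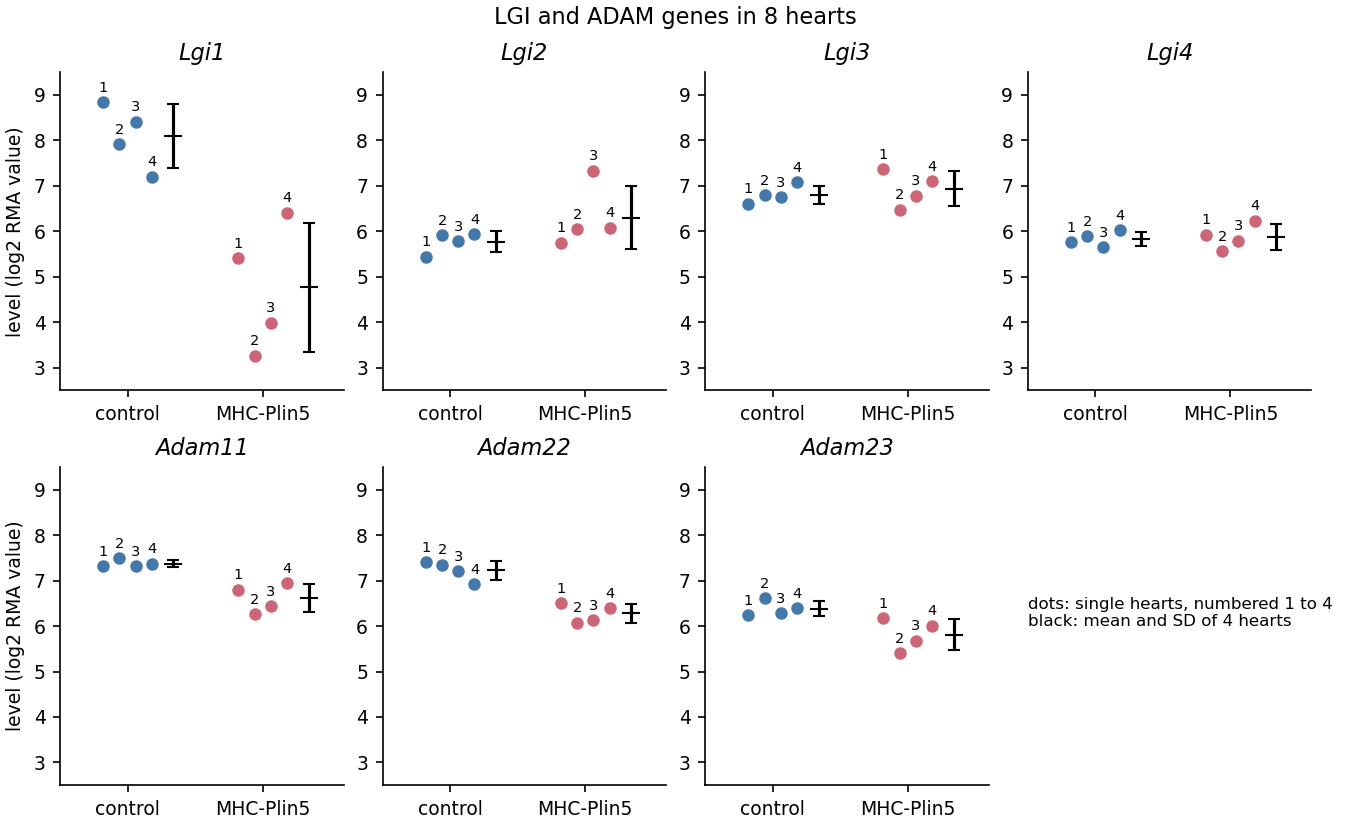
The log2 RMA level (vertical axis, the same range in each panel) of the 4 LGI and 3 ADAM genes is plotted for each heart, numbered 1 to 4, with the mean and SD of each group in black. Lgi1 spans 7.20 to 8.84 in control and 3.26 to 6.41 in MHC-Plin5 hearts, and Adam11, Adam22 and Adam23 are also lower in every MHC-Plin5 heart than in any control heart.

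For each of the other 3 ligands the levels of the groups overlapped. Lgi2, a neuronal relative of Lgi1, stood at 5.44, 5.91, 5.79 and 5.93 in control and at 5.75, 6.05, 7.33 and 6.08 in MHC-Plin5 hearts. MHC-Plin5 3 was the highest heart by 1.25. Its log2 difference was 0.54 (SE 0.28), and without MHC-Plin5 3 it was 0.19 (SE 0.14).

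Lgi3, a secreted protein made by neurons and other tissues, ranged from 6.61 to 7.08 in control and from 6.48 to 7.37 in MHC-Plin5 hearts. Its log2 difference was 0.13 (SE 0.18). It became -0.02 (SE 0.16) without MHC-Plin5 1, and was 0.28 (SE 0.16) without MHC-Plin5 2. Lgi4, the Schwann cell ligand, ranged from 5.66 to 6.03 in control and from 5.56 to 6.24 in MHC-Plin5 hearts, a log2 difference of 0.05 (SE 0.14). It changed sign without MHC-Plin5 4 (-0.07, SE 0.12) or control 3 (-0.01, SE 0.16), and was also below 0 with array weights, without the 2 arrays with the highest medians and with the atrial marker level as a covariate. For Lgi3 and Lgi4 the MHC-Plin5 hearts thus lay on both sides of the control range.

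All 3 receptor genes were lower in MHC-Plin5 hearts with no overlap between the groups. Adam22, the partner of both LGI1 and LGI4, stood at 7.40, 7.35, 7.21 and 6.93 in control and at 6.51, 6.07, 6.13 and 6.40 in MHC-Plin5 hearts. The means were 7.22 ± 0.21 and 6.28 ± 0.21 (SD, n = 4 each), the gap between the nearest hearts was 0.42, and the log2 difference was -0.95 (SE 0.14), or 1.93-fold lower. Its pooled SD within the groups was 0.21, and 32.7% of all genes had a larger one.

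Adam11, a receptor known mainly from the brain, stood at 7.32, 7.50, 7.32 and 7.37 in control and at 6.80, 6.27, 6.44 and 6.94 in MHC-Plin5 hearts. The control hearts lay close together (SD 0.08, n = 4) and the MHC-Plin5 hearts further apart (SD 0.31, n = 4). The log2 difference was -0.76 (SE 0.14), or 1.70-fold lower, with a gap of 0.37 between the nearest hearts.

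Adam23, the receptor that LGI1 links to ADAM22 across synapses, stood at 6.25, 6.62, 6.28 and 6.40 in control and at 6.18, 5.40, 5.67 and 6.004 in MHC-Plin5 hearts. The nearest hearts, control 1 and MHC-Plin5 1, were 0.07 apart. The log2 difference was -0.57 (SE 0.16), or 1.49-fold lower. Of the 3 receptors it had the smallest difference and the smallest gap.

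In limma, with a call at a Benjamini-Hochberg adjusted p under 0.05 over all genes, Lgi1, Adam11 and Adam22 were called lower, which is 3 of the 7 genes, and 0 were called higher. Over all 19938 genes 1.17% were called lower, 2.08% higher and 3.25% in either direction. The groups did not overlap with MHC-Plin5 lower in 4 of the 7 genes and in 5% of all genes. The choice of genes used this same contrast, so nothing is read from these counts. The median log2 difference was -0.76 over the 3 ADAM genes, 0.09 over the 4 LGI genes and -0.03 over all genes. Adam22 was called in all 19 other settings that kept it, with any single heart left out among them. Lgi1 was not called without control 1, without control 3 or with an intensity trend and robust variances. Adam11 lost the call when any control heart was left out, and without MHC-Plin5 2 or 3. Adam23 was called with array weights and without MHC-Plin5 1.

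The 4 MHC-Plin5 hearts differed among themselves in a similar way across these genes. From the highest to the lowest level, both Lgi1 and Adam11 ran from heart 4 through 1 and 3 to 2, and Adam22 and Adam23 both ran from heart 1 through 4 and 3 to 2. Of the ligands whose groups overlapped, Lgi4 ran in the same order as Lgi1 and Lgi3 in the same order as Adam22, while Lgi2 was highest in heart 3 and lowest in heart 1. The transgene ran the other way, from 12.69 in heart 2 through 12.63 in heart 3 and 12.17 in heart 1 to 12.08 in heart 4. Hearts 2 and 3 thus had the highest Plin5 level and the lowest levels of all these genes but Lgi2, so the order was not limited to the 4 genes with separate groups. Some other gene lists were lowest in hearts 2 and 3 as well. Mean levels in MHC-Plin5 1 to 4 were 13.46, 13.37, 13.29 and 13.54 for cardiomyocyte markers. For the ADAM genes listed as testis genes they were 4.01, 3.95, 3.89 and 4.22. Kv1 potassium channel subunits had 6.06, 5.87, 5.78 and 6.25. Their control hearts had 6.14 to 6.31, so MHC-Plin5 1, 2 and 3 were below every control heart. Not every list followed, and the 14-3-3 proteins had 9.67, 9.84, 9.97 and 9.82. Control 2 and MHC-Plin5 4 had the highest array medians. The part of array-wide differences in these orders was not tested. Measured against the control mean, Lgi1 was lower in each of the 4 MHC-Plin5 hearts. It was at -4.83 and -4.10 on the log2 scale in hearts 2 and 3 and at -2.68 and -1.68 in hearts 1 and 4. In control hearts the order of Lgi1 was 1, 3, 2 and 4, that of Adam22 was 1, 2, 3 and 4, and that of Plin5 was 3, 1, 2 and 4, so there Lgi1 and Plin5 did not run in opposite directions. Adam11 and Adam23 ran from control 2 through 4 and 3 to 1, where Lgi1 was highest, so the order that Lgi1 and Adam11 shared in MHC-Plin5 hearts was not seen in controls. With 4 hearts in a group these orders are a description.

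**Figure D2:**
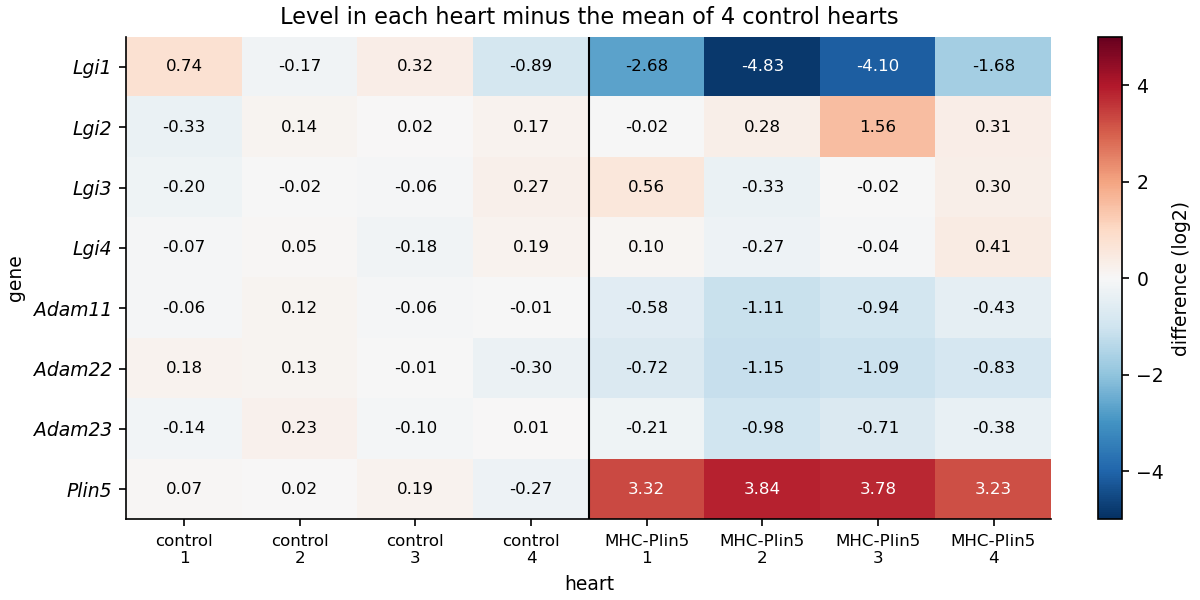
Colour and number give each gene's log2 level in a heart minus the mean of the 4 control hearts, with genes in rows and hearts in columns. MHC-Plin5 2 and 3 show the lowest values of Lgi1 (-4.83 and -4.10), Adam11, Adam22 and Adam23 beside the highest values of Plin5 (3.84 and 3.78), while Lgi2 is raised by 1.56 in MHC-Plin5 3.

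Genes whose levels followed Lgi1 most closely were sought by Pearson correlation of the deviations of the 8 hearts from their genotype means. The search covered 235 genes with a pooled SD of at least 0.5 times that of Lgi1, with predicted genes named Gm, LOC or Rik left out. The highest values belonged to Il15, a cytokine (r = 0.97), Slc36a2, a proton-coupled amino acid transporter (0.94), Pxmp2, a peroxisomal membrane protein (0.91), Osbpl6, a relative of oxysterol-binding proteins (0.90), and Penk, the precursor of enkephalin peptides (0.90). The lowest belonged to Nppb, the B-type natriuretic peptide of strained heart muscle (-0.96), P3h2, a collagen prolyl hydroxylase (-0.94), and Tbx15, a transcription factor (-0.93). The 5th to 95th percentiles over the 235 genes were -0.87 and 0.86, so strong likeness in either direction was common, and all 8 points share the arrays and their normalization. The genes named here varied less in control hearts (SD 0.16 to 0.48) than in MHC-Plin5 hearts (SD 0.77 to 1.15), so r rests mostly on the latter. Il15 stood at 8.34, 7.05, 7.33 and 8.86 in MHC-Plin5 1 to 4 and Nppb at 12.36, 13.49, 13.42 and 11.32, so MHC-Plin5 2 and 3 were the extreme hearts for these genes as well.

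The neighbourhood of the genes on the chromosomes was read from the RefSeq gene table of GRCm38.p6, for gene order only. Lgi1 was flanked by Rbp4, Pde6c and Fra10ac1 on one side and by Slc35g1, Plce1 and Noc3l on the other. None of these 6 was called in limma with Benjamini-Hochberg adjustment. Their log2 differences ran from -0.29 (SE 0.13, adjusted p = 0.301) for Plce1, a phospholipase C, to 0.49 (SE 0.17, adjusted p = 0.164) for Noc3l, a nucleolar protein. Fra10ac1, the nearest on one side, had -0.01 (SE 0.12) and Slc35g1, the nearest on the other, 0.27 (SE 0.12, adjusted p = 0.301). With 1 further neighbour on each side of the other 6 genes, 0 of 18 neighbours were called (3 at an unadjusted p under 0.05) against 3.25% of all genes, and their median difference was -0.01. Noc3l was called higher with array weights, without MHC-Plin5 4 and without the 2 arrays with the highest medians.

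**Figure D3:**
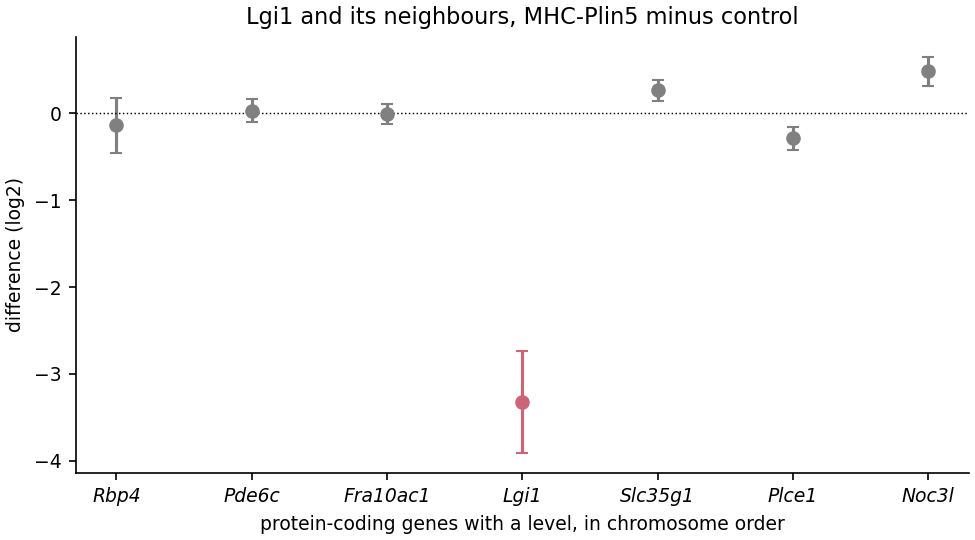
The log2 difference between MHC-Plin5 and control hearts (vertical axis, error bars are SE from 4 hearts per group) is shown for Lgi1 and for the 3 nearest protein-coding genes with a level on either side, in chromosome order. Lgi1 is at -3.32, and its neighbours lie between -0.29 and 0.49.

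Proteins that LGI and ADAM proteins bind or hold in place were examined as 5 lists with 38 genes, beside 33 genes of 3 related families. In limma with Benjamini-Hochberg adjustment, 1 of these 71 genes was called higher and 1 lower, or 2.82% against 3.25% of all genes, and their median log2 difference was -0.01 against -0.03. Among the Kv1 potassium channel subunits, 0 of 11 were called higher and 1 lower, with a median of -0.24, and 9 of 11 differences were below 0. The 1 called was Kcna4, the Kv1.4 channel of the slow transient outward current in heart muscle.

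Kcna4 stood at 6.32, 6.21, 5.93 and 6.26 in control and at 5.82, 5.49, 5.67 and 5.75 in MHC-Plin5 hearts. Every MHC-Plin5 heart was below every control heart. It was 1.41-fold lower (-0.50 on the log2 scale, SE 0.12, limma adjusted p = 0.0419). The call was lost without MHC-Plin5 2, MHC-Plin5 3, control 1, control 2 or control 4, where the adjusted p in limma reached 0.143. It was also lost with median centring, with quantile normalization, without the 2 arrays with the highest medians, and with the array median, the atrial marker level or the replicate block (adjusted p = 0.0677 in limma) in the fit. Kcna2, a main partner of LGI1 complexes in axons, had -0.41 (SE 0.18, adjusted p = 0.285).

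Prnp, the cellular prion protein, which has been found bound to ADAM23, was the 1 gene called higher. It stood at 9.97, 10.10, 10.08 and 10.05 in control and at 10.54, 10.64, 10.81 and 10.43 in MHC-Plin5 hearts, so the groups did not overlap. Its log2 difference was 0.56 (SE 0.10, limma adjusted p = 0.0175), or 1.47-fold higher. The call was lost without control 1, control 3, control 4 or MHC-Plin5 2, with an adjusted p of at most 0.0676. Its list, the other cell surface partners, had 1 of 6 genes called higher, 0 lower and a median of 0.05. In it Cntn2, a contactin of axons and of the conduction system, had -0.47 (SE 0.22, adjusted p = 0.322), and was called lower without MHC-Plin5 4 and without the 2 arrays with the highest medians.

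No gene was called in the other 3 partner lists. The 4 DLG scaffolds, which include PSD-95 (Dlg4), an anchor of ADAM22, had a median of 0.13, with 1 at an unadjusted p under 0.05, and their smallest p values belonged to Dlg1 (0.21, SE 0.09, limma adjusted p = 0.283) and Dlg2 (0.25, SE 0.12, adjusted p = 0.317). The 10 AMPA receptor subunits and their TARP partners had a median of -0.06 and 0 at an unadjusted p under 0.05, with Gria3 at 0.57 (SE 0.27, limma adjusted p = 0.324) and Cacng8 at -0.17 (SE 0.15, adjusted p = 0.647). Without MHC-Plin5 3 the difference of Gria3 was 0.27 (SE 0.18). The 7 proteins of the 14-3-3 family, which bind the tail of ADAM22, had a median of 0.17 and 2 at an unadjusted p under 0.05. Ywhag had 0.38 (SE 0.11, limma adjusted p = 0.109) and Ywhaz 0.26 (SE 0.10, adjusted p = 0.198), both with groups that did not overlap. For Ywhaz the nearest hearts stood at 11.05 and 11.06, and its difference was 0.16 as the mean over its rows and 0.06 in another of its rows. Ywhag was called higher with array weights, the array median as a covariate or median centring.

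**Figure D4:**
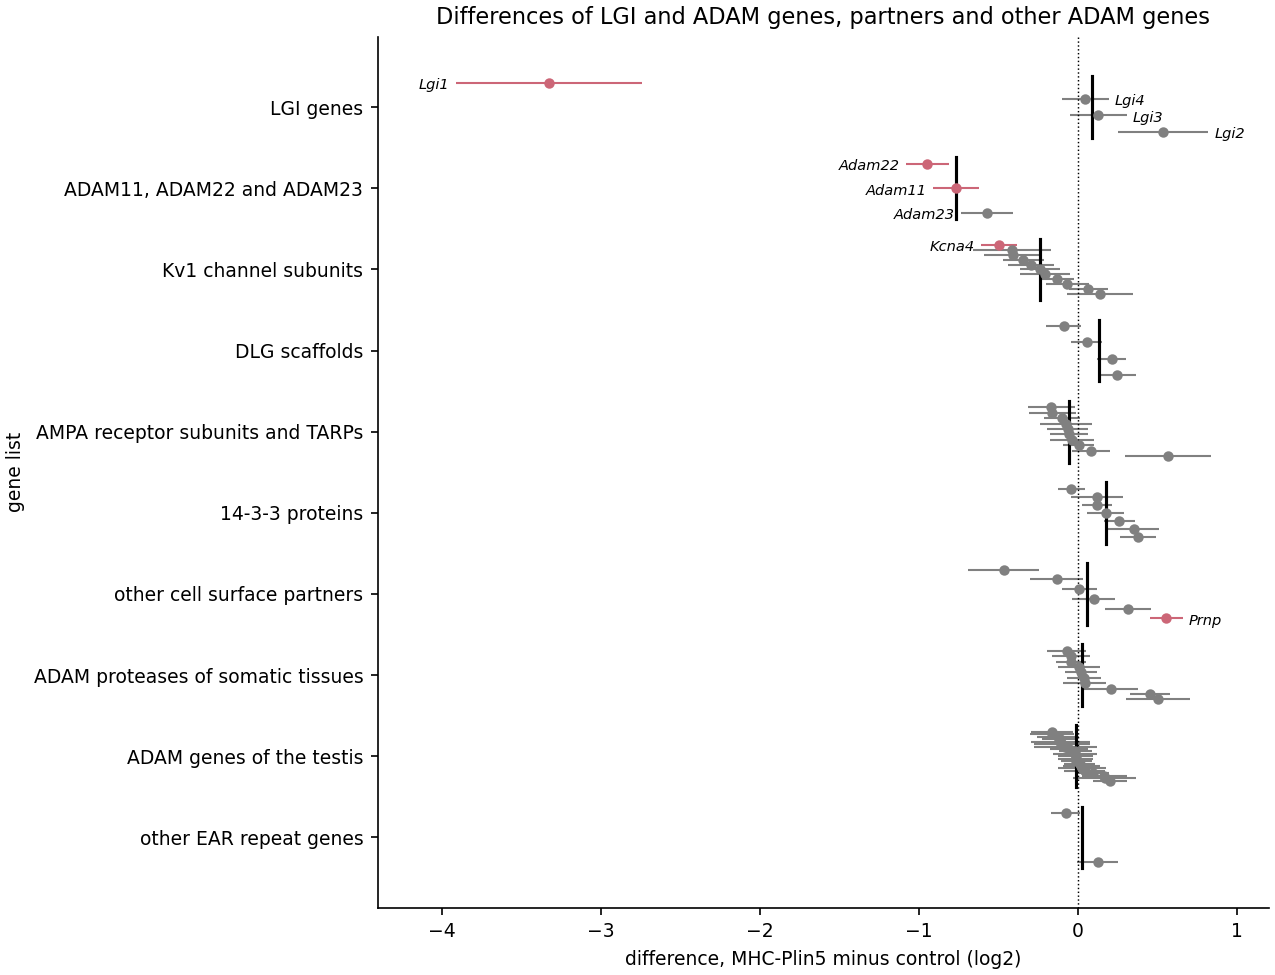
Each dot is the log2 difference of a gene between MHC-Plin5 and control hearts with its SE (4 hearts per group), grouped by list. Black bars are list medians and red marks a limma adjusted p under 0.05. The 3 receptor genes have a median of -0.76 and the 10 ADAM proteases one of 0.03. The 21 ADAM genes listed as testis genes, at the dim end of the array, have one of -0.01.

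None of the other 31 ADAM genes tested was called in limma, against 3.25% of all genes, so little is read from this count. Of 10 ADAM proteases of somatic tissues 0 were called (2 at an unadjusted p under 0.05), and their differences ran from -0.07 to 0.50 with a median of 0.03. Those with the smallest p were Adam19, a protease of heart development, with 0.46 (SE 0.12, limma adjusted p = 0.079) and Adam9 with 0.50 (SE 0.20, adjusted p = 0.229). Without MHC-Plin5 3 the difference of Adam9 was 0.28 (SE 0.13). Adam19 was called higher with array weights, with median centring and with a filter at a mean of 7. Of the 21 ADAM genes listed as testis genes 0 were called (0 at an unadjusted p under 0.05), with differences between -0.16 for Adam24 and 0.20 for Adam32. Their mean log2 level was 3.93 to 4.19 in control and 3.89 to 4.22 in MHC-Plin5 hearts. That is near the median of the olfactory receptor genes (3.93), so a fall in them could hardly be seen. The 2 other genes with EAR repeats, Tspear and Adgrv1, had 0.12 (SE 0.13, limma adjusted p = 0.7) and -0.08 (SE 0.09, adjusted p = 0.748).

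Schwann cells and neurons, the cell types these genes are best known from, were followed by marker lists whose mean levels overlapped between the groups. The 8 Schwann cell markers analysed had a mean log2 level of 6.33 to 6.55 in control and 6.20 to 6.49 in MHC-Plin5 hearts. In limma 0 of the 8 were called and 2, with differences in opposite directions, had an unadjusted p under 0.05. These were Sox10 (-0.33, SE 0.12) and Egr2 (0.89, SE 0.35). Egr2 stood at 8.37 in MHC-Plin5 3, against 6.26 to 6.60 in control hearts, and this raised the list mean of that heart, 6.49. The median of the 8 differences was -0.15, and 6 of them were below 0. For neurons 12 of 13 markers had a row, and their mean level was 5.22 to 5.52 in control and 5.17 to 5.39 in MHC-Plin5 hearts. Of these 12, 0 were called in limma and 2, both lower in MHC-Plin5 hearts, had an unadjusted p under 0.05. These were Dbh (-0.335, SE 0.13) and Nefm (-0.305, SE 0.11). The median of the 12 differences was -0.08. The mean neuron marker levels lay below the 95th percentile of the olfactory receptor genes (5.60), so a fall in most of these markers could be hard to see. Stmn2, Prph and Th were above it (means over 8 hearts 7.44, 6.01 and 5.98), with differences of -0.22, 0.18 and -0.15. The part of nerve cells in the lower levels of Lgi1 and the receptors was not tested.

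In the other marker lists too the mean levels of the groups overlapped and 0 genes were called in limma. All 6 fibroblast markers had a difference above 0, with a median of 0.34 and 1 at an unadjusted p under 0.05, and their mean level was 9.07 to 9.61 in control and 9.22 to 10.05 in MHC-Plin5 hearts. All 6 macrophage markers were also above 0, with a median difference of 0.28, 0 at an unadjusted p under 0.05 and mean levels of 8.35 to 8.81 in control and 8.53 to 9.23 in MHC-Plin5 hearts. The 4 adipocyte markers with a row all had a difference below 0, with a median of -0.60 and 0 at an unadjusted p under 0.05. Their mean level was 5.55 to 7.65 in control hearts, the highest being control 4, and 5.42 to 6.14 in MHC-Plin5 hearts. The median difference was -0.07 over 5 endothelial markers, 0.24 over 4 smooth muscle markers and -0.32 over 4 mesothelial markers, with 0 at an unadjusted p under 0.05 in these 3 lists. The part of these cell types in the levels of the LGI and ADAM genes was not tested.

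Atrial marker levels were uneven between the hearts. The 5 atrial markers, all measured, had mean log2 levels of 7.72, 9.97, 7.25 and 11.33 in the control hearts and of 9.42, 8.04, 11.63 and 10.57 in the MHC-Plin5 hearts, in the order of their numbers. All 5 had a difference above 0, with a median of 0.97, and in limma 0 were called and 1 had an unadjusted p under 0.05, namely Nppa, the atrial natriuretic peptide (1.07, SE 0.44, adjusted p = 0.238). In control hearts the order of Lgi1 (8.84, 7.92, 8.42 and 7.20) set the 2 hearts with the lower atrial level above the 2 with the higher one, while in MHC-Plin5 hearts the lowest atrial level went with the lowest Lgi1 level. With the atrial level as a covariate, an alternative added after the data were seen, the log2 difference of Lgi1 was -3.25 (SE 0.62), that of Adam22 was -0.92 (SE 0.14), that of Adam11 was -0.80 (SE 0.15) and that of Adam23 was -0.62 (SE 0.17). The summed linear level of the atrial markers ran from 3420 to 33600 in control and from 15500 to 36300 in MHC-Plin5 hearts.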

How the data were processed

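The deposited log2 values were made by the authors with Affymetrix Expression Console by RMA, per the submitters' processing notes. No source used here gives its version, the genome build or the background method. Values ran from 2.02 to 14.66. Of 35556 rows, 21789 carried exactly 1 symbol in GEO's platform annotation. Where a gene had several rows, the brightest on average was used, leaving 19938 genes. Each heart is taken as 1 mouse, since the design text counts as many mice as hearts.

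All genes were fitted with lmFit and eBayes (limma 3.58.1, R 4.3.3). Genotype was the single term, tests were two-sided, and p-values were adjusted by Benjamini-Hochberg over the 19938 genes. Differences are MHC-Plin5 minus control. The fit was tested on simulated data. It called 87% of 100 genes changed by 1 on the log2 scale and 98% of 100 changed by 2. Of its 195 calls 10 were false. The simulated noise was independent between genes, with 1 SD per gene for both groups. It therefore does not cover levels that move together in a heart or an SD that differs between groups. No scan dates were used here, so no batch was tested. Tables and plots were made with pandas 2.3.3 and matplotlib 3.10.9 (Python 3.11.15).

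The members, gene lists, motifs and tests were chosen with earlier results of these data known. Named are the 7 genes, Plin5, called genes of each partner or family list or else the 2 with the smallest p, the neighbours of Lgi1, and the 5 genes most and 3 least like Lgi1. Kcna2, Cntn2 and other genes outside that rule were named after their values were seen. Promoter sequences are RefSeq's for GRCm38.p6. Alternatives were filters, normalizations, a variance model, array weights, other handling of rows, a replicate block, covariates and each heart left out.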

Additional observations from a re-analysis of the deposited data

Results flagged for a closer look

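Reep4, the neighbour of Lgi3, stood at 7.89 in MHC-Plin5 3, far above the other 3 hearts of that group, which lay between 7.50 and 7.57. It was the only value of 96 groups of 4 hearts, over most genes named here and their neighbours, that lay beyond the limit of Dixon's test. Chance sets off this test in about 5% of groups.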

How the results depend on the processing

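The differences of the 7 genes moved by less than 1 SD under all 19 other settings (133 comparisons); Lgi1 ranged from -3.93 to -2.82, Adam22 from -1.05 to -0.88, Adam11 from -0.87 to -0.65 and Adam23 from -0.69 to -0.43. A filter at a mean of 7 left none of the 7 genes. With single hearts left out, 1 to 4 of the 7 were called, 233 to 1174 of all genes, 0 to 3 of the partner and family genes and 0 to 1 of the neighbours. Array weights gave 1625 called genes, 4 partner and family genes and 1 neighbour (Noc3l). With the atrial marker level as a covariate, chosen after seeing the data, 431 genes were called and 1 partner or family gene. Quantile normalization left 1 partner or family gene. Without the 2 arrays with the highest medians 1 neighbour was called (Noc3l, 0.69, adjusted p = 0.0355 in limma). The cause of these changes was not tested. Hearts of the same number were not treated as pairs. Correlations of same-numbered deviations were 0.187, 0.0254, -0.107 and -0.0403, within the range of differently numbered hearts (-0.179 to 0.261). These few values cannot exclude a pairing. With the replicate block 507 genes were called, 3 of the 7, and 1 partner or family gene. Of 623 further comparisons for other named genes, 560 kept their side of the threshold and 0 reversed. Precision is limited by 4 arrays per group and, for Lgi1 in MHC-Plin5 hearts, by the dim end of the array.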
